A study of Arabidopsis thaliana with 12 samples.

Results

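MYB4, MYB7, MYB32 and MYB3 of Arabidopsis thaliana are 4 transcription factor genes of subgroup 4 of the R2R3-MYB family, chosen by their locus identifiers (AT4G38620, AT2G16720, AT4G34990 and AT1G22640) out of 34218 genes in the deposited table. RNA sequencing was carried out on 14-day-old Col-0 seedlings, with leaves given as the tissue. The 4 groups, with 3 biological replicates each, were a line carrying the wheat gene TaF5H1 under its own promoter (pTaF5H1:TaF5H1) in 200 mM NaCl for 6 h, that line kept for 6 h in nutrient solution without NaCl, wild type (WT, Col-0) in 200 mM NaCl for 6 h, and WT without NaCl. How many independent transformants the line represents is not given in the sources used here. The wheat transcript itself was not analysed here, and the line keeps its own ferulate 5-hydroxylase gene, FAH1. All 4 MYB genes were detected in every library. All 4 were among the 17038 genes tested, those with a mean FPKM (counts scaled by exon length and by the library's total count) of at least 1.

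R2R3-MYB proteins bind DNA through a pair of MYB repeats near the amino terminus. Most members of the family studied in the phenylpropanoid pathway switch its genes on, whereas subgroup 4 proteins switch them off. They bind AC-rich promoter elements and carry a short leucine-rich repression motif of the EAR type behind the MYB repeats, which recruits corepressors such as TOPLESS. The pathway turns phenylalanine into cinnamate and from there into lignin precursors, sinapate esters and flavonoids. In Arabidopsis, MYB4 is known as a repressor of the cinnamate 4-hydroxylase gene C4H and of sinapate ester formation and as a gene that is turned down in UV-B light. MYB7 is known as a repressor of flavonol genes and of the abscisic acid regulator ABI5, MYB32 as a gene needed for normal pollen development, and MYB3 as a repressor of C4H that works with the clock-associated proteins LNK1 and LNK2. F5H enzymes act in the syringyl and sinapate branch of the same pathway.

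Each of the 4 proteins held a match to the repression motif, whose activity was not tested here. The bases that encode it are shown in capitals, each with the coding bases on both sides. They are read 5′ to 3′ on the coding strand from RefSeq TAIR10.1.
MYB4: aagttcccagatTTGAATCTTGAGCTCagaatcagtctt
MYB7: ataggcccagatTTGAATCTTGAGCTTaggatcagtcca
MYB32: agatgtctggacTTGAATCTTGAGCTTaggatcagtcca
MYB3: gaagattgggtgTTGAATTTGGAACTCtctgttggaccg
These stretches lie at chr4:18054607-18054645 on the plus strand for MYB4, chr2:7255885-7255923 on the minus strand for MYB7, chr4:16661616-16661654 on the minus strand for MYB32 and chr1:8006998-8007036 on the plus strand for MYB3, each within 1 coding exon. The motif searched was a leucine, any residue, a leucine, any residue and a leucine, and it covered residues 198 to 202 of 282 in MYB4, 190 to 194 of 269 in MYB7, 185 to 189 of 274 in MYB32 and 189 to 193 of 257 in MYB3. MYB32 held a second, overlapping match at residues 183 to 187.

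Across the first 120 residues, which include the DNA-binding repeats, the proteins translated from the same annotation were 86.7% to 90.0% identical in every pair. Beyond them, identity was 51.2% between MYB7 and MYB32, 38.4% between MYB4 and MYB7, 36.5% between MYB4 and MYB32, and 20.1% to 22.2% between MYB3 and each of the others. MYB4 spans positions 18053360 to 18055040 of chromosome 4 on the plus strand (TAIR10) and MYB7 positions 7255473 to 7256831 of chromosome 2 on the minus strand. MYB32 spans positions 16661101 to 16662549 of chromosome 4 on the minus strand and MYB3 positions 8006064 to 8007465 of chromosome 1 on the plus strand. No other gene of the table overlapped any of them.

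Library totals ran between 17173618 and 21651124 counts. Replicate 1 of the TaF5H1 line in NaCl stood apart. Its log2 FPKM values correlated at 0.9419 and 0.9458 with those of the other libraries of its group, which correlated at 0.9932 with each other. Values without it are given beside the results it moves. Photosynthesis transcripts that mark leaf mesophyll were present in all libraries, and the summed FPKM of 6 root markers was at most 0.24, with 4 or 5 of the 6 at 0 throughout a group, so the libraries matched the labelled leaf tissue. The summed FPKM of the 4 mesophyll markers (RBCS1A, LHCB1.3, LHCB2.1 and CA1) was 492 to 2220 in TaF5H1 in NaCl, 10800 to 12700 in untreated TaF5H1, 4560 to 4820 in WT in NaCl and 18400 to 19900 in untreated WT. The same sum over 6 xylem markers was 2.99 to 11.7 in TaF5H1 in NaCl, 3.82 to 13.2 in untreated TaF5H1, 13.8 to 38.2 in WT in NaCl and 12.3 to 21.2 in untreated WT, with no marker at 0 throughout a group. In NaCl, 3 of the 5 xylem markers tested were lower in the line than in WT, and their part in the results for the line was not tested. In seedling RNA of this kind, fewer cells of a type and less RNA per cell cannot be told apart.

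The 4 repressors did not move as a block. MYB3 rose under NaCl in both genotypes and was higher in the TaF5H1 line in both conditions. MYB4 fell under NaCl in the line, to the lowest level of any member in any group. MYB7 and MYB32 rose under NaCl in WT, and were higher in the line than in WT without salt.

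MYB4, the member best known for holding back C4H, had 4.14, 2.37 and 1.45 FPKM in TaF5H1 in NaCl and 12.87, 16.68 and 16.71 FPKM in untreated TaF5H1. WT had 7.33, 6.45 and 8.32 FPKM in NaCl and 14.41, 11.73 and 13.99 FPKM without it. The NaCl libraries lay below all untreated libraries in either genotype, and those of the line in NaCl lay below all others, while the untreated libraries of the line and of WT overlapped. The values of the line in NaCl rested on 108, 78 and 40 counts, together the lowest sum of any member in any group.

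The change of MYB4 under NaCl was a log2 fold change of -2.27 ± 0.30 in the TaF5H1 line (SE, edgeR adjusted p = 5.3e-05). The mean there was 2.65 ± 1.37 FPKM in NaCl and 15.4 ± 2.21 FPKM without it (SD, n = 3 each). In WT it was -0.67 ± 0.28, which did not pass the threshold of 0.05 (edgeR adjusted p = 0.0646). The means there were 7.37 ± 0.936 FPKM in NaCl and 13.4 ± 1.44 FPKM without it (SD, n = 3 each). This WT value changed sides with the processing. It passed under 6 of the 9 other settings, among them scaling to library totals alone (-0.86, edgeR adjusted p = 0.0176) and DESeq2 (-0.67, adjusted p = 0.0414). It also passed in 2 of the 12 fits that left out 1 library, those without replicate 1 (-0.64, edgeR adjusted p = 0.0051) or replicate 3 (-0.67) of the line in NaCl.

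The salt responses of MYB4 differed between the genotypes by -1.61 ± 0.41 on the log2 scale (line minus WT, edgeR adjusted p = 0.044), a larger fall in the line. That call was lost in 11 of the 12 fits that left out 1 library, with values of -2.09 to -1.30 and adjusted p up to 0.104. It held only in the fit without replicate 1 of the line in NaCl (-2.09, edgeR adjusted p = 8.11e-05). Within NaCl, MYB4 was lower in the line than in WT, with a log2 difference of -1.49 ± 0.30 (edgeR adjusted p = 0.00563), and of -1.97 without that library. A fit of only those groups ended this call (-1.46, edgeR adjusted p = 0.051). Without salt, the line and WT differed by 0.11 ± 0.28 (edgeR adjusted p = 0.815), which is below the spread between replicates.

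The mesophyll markers moved beside MYB4: all 4 fell under NaCl in both genotypes, with a median log2 fold change of -2.98 in the line and -1.80 in WT, and all 4 were lower in the line than in WT in NaCl (median -2.05). Their part in the MYB4 result was not tested. Without salt, 1 of the 4 was lower in the line (median -0.96), a comparison in which MYB4 did not pass.

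**Figure D1:**
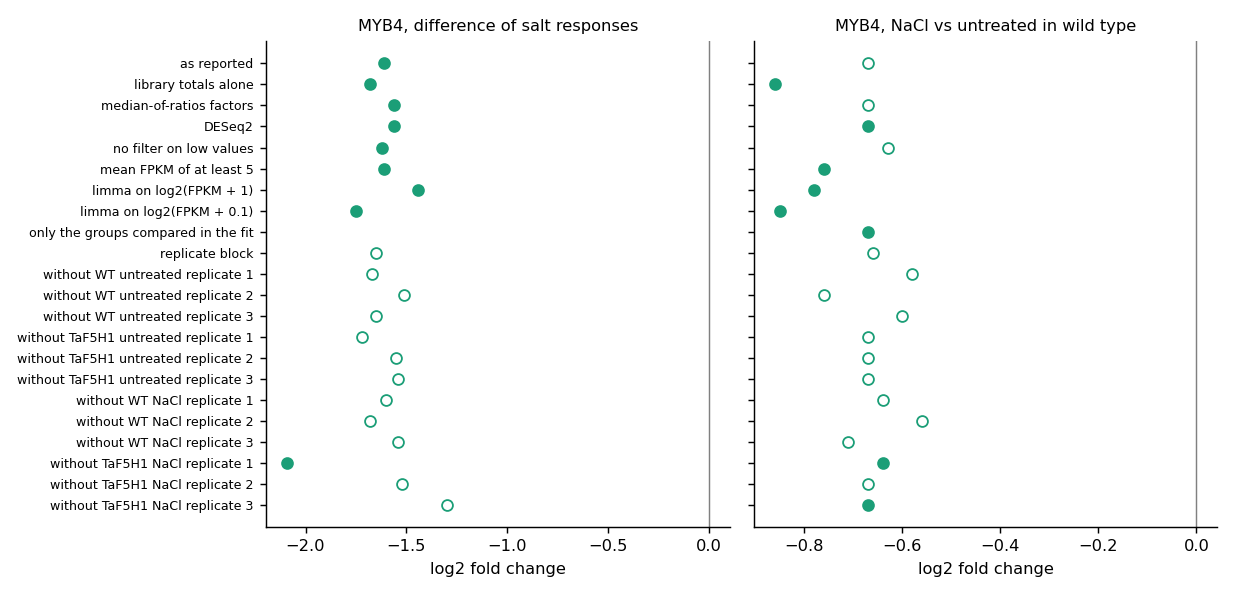
Log2 fold change of MYB4 as reported and under each alternative setting, for the difference of the salt responses (TaF5H1 line minus WT, left) and for NaCl over untreated in WT (right). Filled points had an adjusted p under 0.05 and open points did not: all values are negative, but the difference of responses runs between -2.09 and -1.30 and is filled in only 1 of the 12 settings that leave out a library.

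MYB3, which with LNK1 and LNK2 represses C4H, was the most abundant member in NaCl. It had 35.29, 44.77 and 43.16 FPKM in TaF5H1 in NaCl and 12.26, 19.84 and 11.91 FPKM in untreated TaF5H1. WT had 20.85, 21.00 and 21.82 FPKM in NaCl and 6.21, 9.30 and 6.94 FPKM without it. The libraries of no pair of groups overlapped, and the order was the line in NaCl, WT in NaCl, the untreated line and untreated WT. Under NaCl the gene rose by a log2 fold change of 1.74 ± 0.20 in the line (edgeR adjusted p = 1.8e-05), with means of 41.1 ± 5.07 FPKM in NaCl and 14.7 ± 4.48 FPKM without it (SD, n = 3 each). In WT it rose by 1.70 ± 0.20 (edgeR adjusted p = 3.26e-05), with means of 21.2 ± 0.522 FPKM in NaCl and 7.48 ± 1.62 FPKM without it (SD, n = 3 each).

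The salt responses of MYB3 differed between genotypes by 0.04 ± 0.28 (edgeR adjusted p = 0.946), a value whose sign depended on the scaling and on single libraries. The line exceeded WT by 0.92 ± 0.20 in NaCl (edgeR adjusted p = 0.00685) and by 0.88 ± 0.20 without it (edgeR adjusted p = 0.0148). The difference without salt no longer passed when replicate 1 or replicate 3 of untreated WT was left out (0.77 with edgeR adjusted p = 0.0628, and 0.84 with edgeR adjusted p = 0.0631). The other 3 MYB3 calls held in all 12 such fits.

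MYB7, the repressor of flavonol genes and ABI5, had 12.35, 14.32 and 12.58 FPKM in TaF5H1 in NaCl and 9.0, 11.39 and 13.43 FPKM in untreated TaF5H1. WT had 7.87, 7.42 and 11.15 FPKM in NaCl and 3.57, 6.52 and 5.74 FPKM without it. Untreated WT lay below every other library, and the line in NaCl, the untreated line and WT in NaCl each overlapped with the next in the order of means. In WT, MYB7 rose under NaCl by 0.93 ± 0.23 (edgeR adjusted p = 0.00509), with means of 8.81 ± 2.04 FPKM in NaCl and 5.28 ± 1.53 FPKM without it (SD, n = 3 each). In the line, the change was 0.48 ± 0.22 (edgeR adjusted p = 0.0805), with means of 13.1 ± 1.08 FPKM in NaCl and 11.3 ± 2.22 FPKM without it (SD, n = 3 each).

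The line had more MYB7 transcript than WT without salt, by 1.00 ± 0.23 (edgeR adjusted p = 0.0148). In NaCl the difference was 0.55 ± 0.22 (edgeR adjusted p = 0.0779), although the libraries of the line and of WT did not overlap there. Under DESeq2 both of the MYB7 values that missed the threshold passed it, with 0.52 (adjusted p = 0.0469) for NaCl over untreated in the line and 0.59 (adjusted p = 0.0398) for the line over WT in NaCl. Both also passed in edgeR without replicate 1 of untreated WT (adjusted p = 0.0352 and 0.0458). The difference of the salt responses was -0.46 ± 0.32 (edgeR adjusted p = 0.371).

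MYB32, known from pollen development, had 10.24, 7.54 and 7.05 FPKM in TaF5H1 in NaCl and 9.80, 10.90 and 7.67 FPKM in untreated TaF5H1. WT had 7.80, 7.27 and 8.38 FPKM in NaCl and 4.93, 4.15 and 5.42 FPKM without it. Untreated WT was again below every other library, and the other 3 groups overlapped. In WT, MYB32 rose under NaCl by 0.89 ± 0.20 (edgeR adjusted p = 0.00273), with means of 7.82 ± 0.555 FPKM in NaCl and 4.83 ± 0.64 FPKM without it (SD, n = 3 each). Without salt the line exceeded WT by 0.88 ± 0.20 (edgeR adjusted p = 0.0137), with a mean of 9.46 ± 1.64 FPKM in the line (SD, n = 3).

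That last call was narrow and was lost in 3 of the 12 fits without 1 library. They were those without replicate 2 of untreated WT and without replicate 1 or 2 of the untreated line, with edgeR adjusted p between 0.0507 and 0.0553. In the line, NaCl changed MYB32 by 0.07 ± 0.19 (edgeR adjusted p = 0.758), and the sign turned with the scaling (-0.19 with library totals alone) and without replicate 1 of the line in NaCl (-0.11). In NaCl, the line and WT differed by 0.06 ± 0.19 (edgeR adjusted p = 0.835), and by -0.14 without that library. The salt responses of the genotypes differed by -0.82 ± 0.28 (edgeR adjusted p = 0.0929), which passed without that library (-1.02, edgeR adjusted p = 0.00503).

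**Figure D2:**
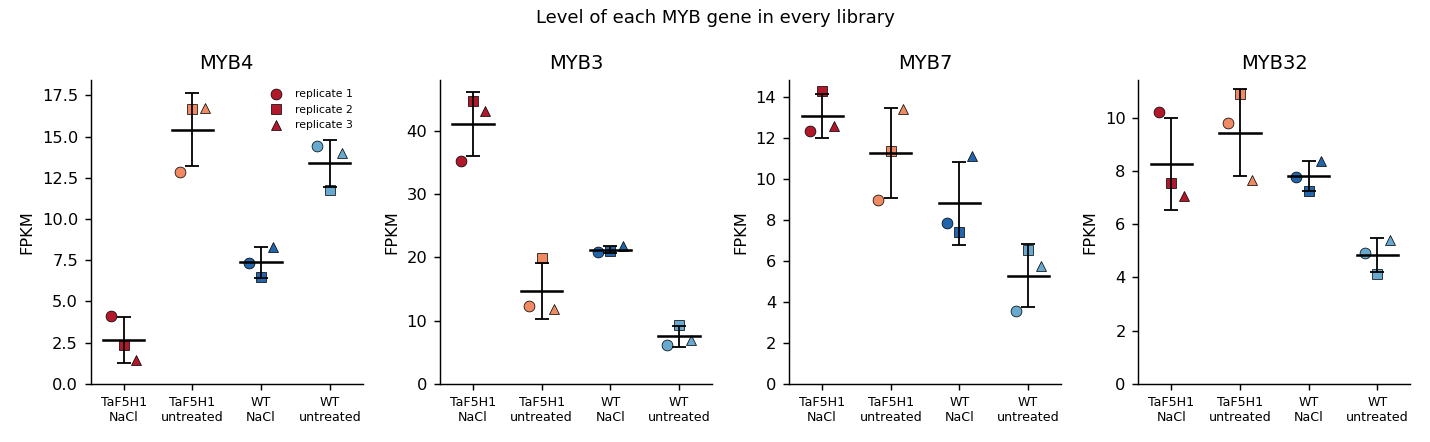
FPKM of MYB4, MYB3, MYB7 and MYB32 in each of the 12 libraries (points, shape by replicate), with the mean and SD of each group (bars); each panel has its own axis, starting at 0. MYB4 is lowest in the TaF5H1 line in NaCl (1.45 to 4.14 FPKM), where MYB3 is highest (35.29 to 44.77 FPKM), and MYB7 and MYB32 are lowest in untreated WT.

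Counted over the 4 genes, 1 was higher and 1 lower under NaCl in the line, where 31.4% of all genes tested were called higher and 33.5% lower. In WT, 3 were higher and 0 lower under NaCl, against 27.1% and 26.7% of all genes; for the member not called, MYB4, the unadjusted p was 0.036. In NaCl, 1 was higher and 1 lower in the line than in WT, against 15.6% and 19.0%. Without salt, 3 were higher and 0 lower in the line, against 7.34% and 6.58% of all genes; the member not called, MYB4, had an adjusted p of 0.815 in edgeR. For the difference of the salt responses, 1 of the 4 was called, in the negative direction, against 2.92% of all genes called positive and 2.95% called negative.

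Under NaCl the 1 higher and 1 lower member in the line are close to the shares over all genes. The median log2 fold change of the 4 was 0.27 in the line and 0.91 in WT under NaCl, against -0.05 and -0.02 over all genes tested. It was 0.30 for the line over WT in NaCl and 0.88 without salt, against -0.03 and 0.01 over all genes. Without replicate 1 of the line in NaCl, the counts became 3 higher and 1 lower for NaCl in WT and 2 negative for the difference of the responses, and were 1 higher and 1 lower for NaCl in the line, 1 and 1 for the line over WT in NaCl, and 3 higher without salt. The comparisons of NaCl with no salt in WT and of the line with WT without salt share the untreated WT libraries, and untreated WT held the lowest values of MYB3, MYB7 and MYB32, so the 3 calls in each are not separate observations.

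Scaling bears on such directions. Dividing by library totals alone, in place of TMM factors, moved the median change of all genes under NaCl to -0.31 in the line and -0.22 in WT. Higher calls then made up 34.9% of all calls in the line and 36.9% in WT, against 48.4% and 50.4% with TMM. For the line over WT without salt the share was 66.4% against 52.7%, and for the difference of responses 32.8% against 49.8%. Every call on the 4 genes kept its direction and its side of the threshold under that scaling, and MYB4 in WT was added to them.

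**Figure D3:**
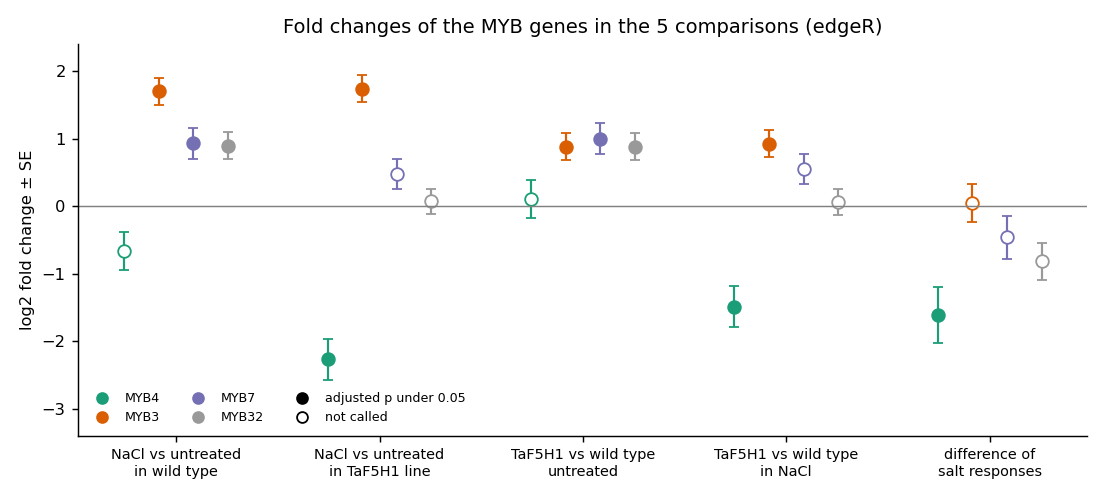
Log2 fold change of each gene in the 5 comparisons, with its standard error (bars), from the edgeR fit over all 12 libraries; filled points had an adjusted p under 0.05. MYB4 and MYB3 lie on opposite sides of 0 under NaCl in the line (-2.27 and 1.74), and MYB7, MYB32 and MYB3 lie close together for the line over WT without salt (0.88 to 1.00).

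The makeup of the 4 transcripts differed between the groups. Since FPKM is per length, levels can be added across the genes: the summed FPKM was 65.1 ± 3.57 in TaF5H1 in NaCl, 50.8 ± 7.50 in untreated TaF5H1, 45.2 ± 3.95 in WT in NaCl and 31.0 ± 1.61 in untreated WT (SD, n = 3 each). The MYB4 share of that sum was 2.26% to 6.68% in TaF5H1 in NaCl, 28.4% to 33.6% in untreated TaF5H1, 15.3% to 16.8% in WT in NaCl and 37.0% to 49.5% in untreated WT. The libraries of no pair of groups overlapped in this share, which was lowest in the line in NaCl. The MYB3 share ran the other way, at 56.9% to 67.2% in TaF5H1 in NaCl, 24.0% to 33.7% in untreated TaF5H1, 43.9% to 49.8% in WT in NaCl and 21.3% to 29.3% in untreated WT, with overlap between the untreated groups.

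The shares of MYB7 and MYB32 varied less. MYB7 averaged 20.1% in TaF5H1 in NaCl, 22.3% in untreated TaF5H1, 19.3% in WT in NaCl and 16.9% in untreated WT. MYB32 averaged 12.8% in TaF5H1 in NaCl, 18.8% in untreated TaF5H1, 17.3% in WT in NaCl and 15.6% in untreated WT. The ratio of MYB3 to MYB4 FPKM was 8.52, 18.9 and 29.8 in TaF5H1 in NaCl, 0.953, 1.19 and 0.713 in untreated TaF5H1, 2.84, 3.26 and 2.62 in WT in NaCl, and 0.431, 0.793 and 0.496 in untreated WT. MYB3 thus exceeded MYB4 in all 6 NaCl libraries and in 1 of the 6 untreated ones. The library that stood apart, replicate 1 of the line in NaCl, had the lowest ratio of its group, still above all libraries of the other groups.

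**Figure D4:**
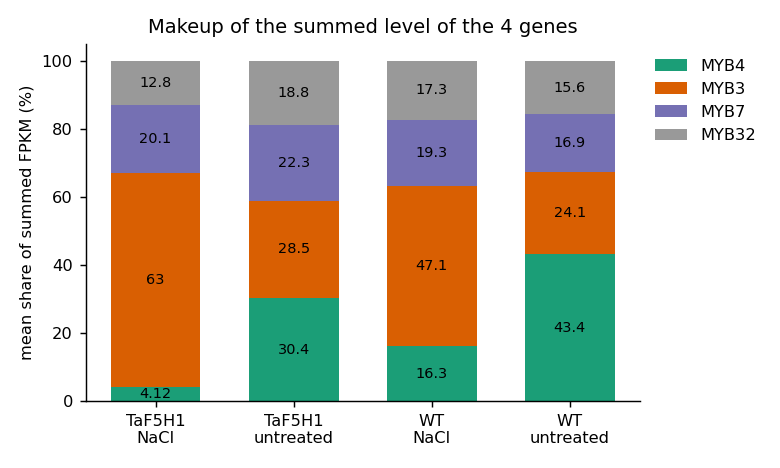
Mean share of each gene in the summed FPKM of the 4 genes, in percent, in each group (n = 3 libraries each). MYB4 makes up 4.12% in the TaF5H1 line in NaCl, against 30.4% in the untreated line, 16.3% in WT in NaCl and 43.4% in untreated WT, while MYB3 makes up 63.0% in the line in NaCl, 28.5% in the untreated line, 47.1% in WT in NaCl and 24.1% in untreated WT.

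Over the 12 libraries, on the log2(FPKM + 1) scale, MYB3 correlated with MYB7 at 0.78, with MYB32 at 0.56 and with MYB4 at -0.85, and MYB7 with MYB32 at 0.68. MYB4 correlated with MYB7 at -0.47 and with MYB32 at -0.13. These coefficients describe libraries of 4 groups that are shared by all 4 genes, and they carry no test.

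Among all genes tested, the pattern most like MYB4 was that of AT1G26650 (r = 0.991), the fasciclin-like arabinogalactan protein gene FLA16 (0.988) and AT3G53470 (0.987). FLA16 averaged 1.04 FPKM in TaF5H1 in NaCl, 14.9 in untreated TaF5H1, 4.26 in WT in NaCl and 10.3 in untreated WT. The patterns most opposed to MYB4 were those of AT1G60420 (r = -0.984), the autophagy gene ATG7 (-0.984) and PP2B1 (-0.982). ATG7 averaged 37.5 FPKM in TaF5H1 in NaCl, 5.28 in untreated TaF5H1, 12.1 in WT in NaCl and 5.53 in untreated WT. These genes were chosen by their correlation with MYB4 over the same libraries. A group pattern like, or opposed to, that of MYB4 follows from that choice.

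For MYB3 the most similar were AT4G36640 (r = 0.983), AT5G21940 (0.983) and AT2G18240 (0.982), and the most opposed were the cytochrome b561 gene ACYB-2 (-0.987), SUVH2, which acts in RNA-directed DNA methylation (-0.984), and AT3G54750 (-0.983). For MYB7 they were the zinc finger gene OZF2 (0.917), the vacuolar processing enzyme gene GAMMA-VPE (0.915) and GAUT3 (0.908), opposed by SAUR9 (-0.905), the nicotinate phosphoribosyltransferase gene NAPRT1 (-0.899) and AT1G02705 (-0.896). For MYB32 they were RUG1 (0.955), AT5G43150 (0.94) and AT2G41000 (0.936), opposed by the extensin-type cell wall gene LRX3 (-0.934), the beta-tubulin gene TUBB4 (-0.915) and AT4G00300 (-0.912). The closest genes to MYB7 and MYB32 thus had lower coefficients than those to MYB4 and MYB3, over the same 12 libraries and 17038 genes.

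The nearest relatives of the 4 genes behaved differently from one another. MYBL2, a single-repeat repressor of anthocyanin genes with an EAR-type motif, rose under NaCl by 2.11 ± 0.33 in the line (edgeR adjusted p = 0.000178) and by 2.14 ± 0.34 in WT (edgeR adjusted p = 0.000253). It averaged 48.0 ± 21.3 FPKM in TaF5H1 in NaCl, 13.2 ± 3.51 in untreated TaF5H1, 22.9 ± 4.43 in WT in NaCl and 5.97 ± 1.35 in untreated WT (SD, n = 3 each). This was the order of groups of MYB3. In NaCl it was higher in the line by 1.02 ± 0.32 (edgeR adjusted p = 0.0296). MYB6 fell under NaCl in WT, with a log2 fold change of -0.67 ± 0.18 (edgeR adjusted p = 0.00904) and changed by 0.20 ± 0.18 in the line (edgeR adjusted p = 0.354). In NaCl MYB6 was higher in the line by 0.62 ± 0.18 (edgeR adjusted p = 0.0244). Leaving out 1 library ended the WT call of MYB6 in 2 of 12 fits, those without replicate 1 of WT in NaCl or of untreated WT. It ended the differences of MYBL2 and MYB6 between line and WT in NaCl in 4 fits each, and a fit of only those groups ended both (edgeR adjusted p = 0.0836 and 0.0566). Of the relatives edgeR called 0 higher in the line without salt and 0 positive for the difference of responses, with 1 each at an unadjusted p under 0.05, 1 each in DESeq2 and 0 in limma. Without replicate 1 of the line in NaCl, edgeR called 1 in each. MYB8 averaged at most 0.39 FPKM in any group, was listed at 0 in every NaCl library and was not tested.

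Of 12 partners through which repressors of this kind act, 10 were tested, and 5 rose and 2 fell under NaCl in the line, against 4 and 2 in WT. Over all genes tested, 31.4% were called higher and 33.5% lower under NaCl in the line, and 27.1% and 26.7% in WT. The same shares apply beside the NaCl counts of the lists below. The median log2 fold change of the 10 was 0.44 in the line and 0.11 in WT. LNK1, the corepressor of MYB3, rose by 2.00 ± 0.22 in the line (edgeR adjusted p = 1.29e-05) and by 2.53 ± 0.24 in WT (edgeR adjusted p = 5.64e-06). It was also higher in the line than in WT, by 1.51 ± 0.22 in NaCl (edgeR adjusted p = 0.00223) and by 2.03 ± 0.24 without it (edgeR adjusted p = 0.000639). LNK1 averaged 14.7 ± 3.09 FPKM in TaF5H1 in NaCl, 4.35 ± 1.47 in untreated TaF5H1, 5.03 ± 0.366 in WT in NaCl and 1.00 ± 0.0346 in untreated WT (SD, n = 3 each). Its lowest and highest groups were those of MYB3. LNK2 rose in WT under NaCl by 0.48 ± 0.18 (edgeR adjusted p = 0.0408) and was higher in the untreated line by 0.88 ± 0.18 (edgeR adjusted p = 0.0082). In the line NaCl changed it by -0.42 ± 0.18 (edgeR adjusted p = 0.0545). The WT call of LNK2 was lost in 5 of the 12 fits without 1 library, when scaled to totals alone (edgeR adjusted p = 0.204) and in limma (adjusted p = 0.235 and 0.229 with pseudocounts of 1 and 0.1).

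Among the TOPLESS-type corepressors, TPR3 rose under NaCl by 1.10 ± 0.16 in the line (edgeR adjusted p = 0.000114) and by 0.70 ± 0.16 in WT (edgeR adjusted p = 0.00354). In NaCl it was higher in the line by 0.78 ± 0.16 (edgeR adjusted p = 0.00625). TPL and TPR4 rose in the line, by 0.61 ± 0.17 (edgeR adjusted p = 0.0065) and 0.68 ± 0.18 (edgeR adjusted p = 0.00543). Their values in WT were 0.04 and 0.17, but their differences of response did not pass (edgeR adjusted p = 0.142 and 0.204). With library totals alone the calls in the line were lost (edgeR adjusted p = 0.0789 and 0.0518), and limma ended that of TPL (adjusted p = 0.0558 and 0.0562 with pseudocounts of 1 and 0.1). TPR1 and TPR2 passed in no comparison. SAD2, the importin that carries MYB4 into the nucleus, fell under NaCl, with log2 fold changes of -0.80 ± 0.19 in the line (edgeR adjusted p = 0.00358) and -0.66 ± 0.19 in WT (edgeR adjusted p = 0.0128, and 0.067 without replicate 2 of WT in NaCl). SAD2 did not pass between the genotypes, with and without salt.

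Of the bHLH and WD40 partners of MYB proteins, GL3 and TTG1 were tested. The bHLH gene GL3 rose under NaCl by 3.26 ± 0.28 in the line (edgeR adjusted p = 1.8e-06) and by 4.88 ± 0.33 in WT (edgeR adjusted p = 3.91e-07). It was higher in the untreated line by 1.93 ± 0.36 (edgeR adjusted p = 0.00533, but 0.105 in limma with a pseudocount of 1). Its level was low throughout, at 3.14 ± 0.421 FPKM in TaF5H1 in NaCl, 0.39 ± 0.12 in untreated TaF5H1, 2.49 ± 0.167 in WT in NaCl and 0.0967 ± 0.0379 in untreated WT (SD, n = 3 each). The WD40 gene TTG1 fell under NaCl, with log2 fold changes of -0.70 ± 0.13 in the line (edgeR adjusted p = 0.000531) and -0.71 ± 0.13 in WT (edgeR adjusted p = 0.000683). The bHLH genes TT8 and EGL3 were below the filter on the mean of all libraries, with group means of at most 1.24 and 0.157 FPKM.

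For the line over WT, 2 partners were higher in NaCl (TPR3 and LNK1) and 3 were higher without salt (LNK1, LNK2 and GL3), with medians of 0.14 and -0.06. In edgeR none was called lower, while 0 in NaCl and 1 without salt had a negative change with an unadjusted p under 0.05, and DESeq2 and limma also called 0. Without replicate 1 of the line in NaCl, 1 was lower in each. For the difference of responses 1 (GL3) was negative, with an adjusted p of 0.04998 in edgeR that rose above the threshold in 10 of the 12 fits without 1 library. That call was also lost with median-of-ratios factors (edgeR adjusted p = 0.0545), with no filter (edgeR adjusted p = 0.0621) and in limma (adjusted p = 0.769 and 0.147 with pseudocounts of 1 and 0.1). In edgeR 2 partners were negative without replicate 1 of the line in NaCl. Over all genes tested, with all libraries, 15.6% were called higher and 19.0% lower in the line in NaCl. The shares were 7.34% and 6.58% without salt, and 2.92% positive and 2.95% negative for the difference of responses. These shares also apply beside the counts of the lists below.

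**Figure D5:**
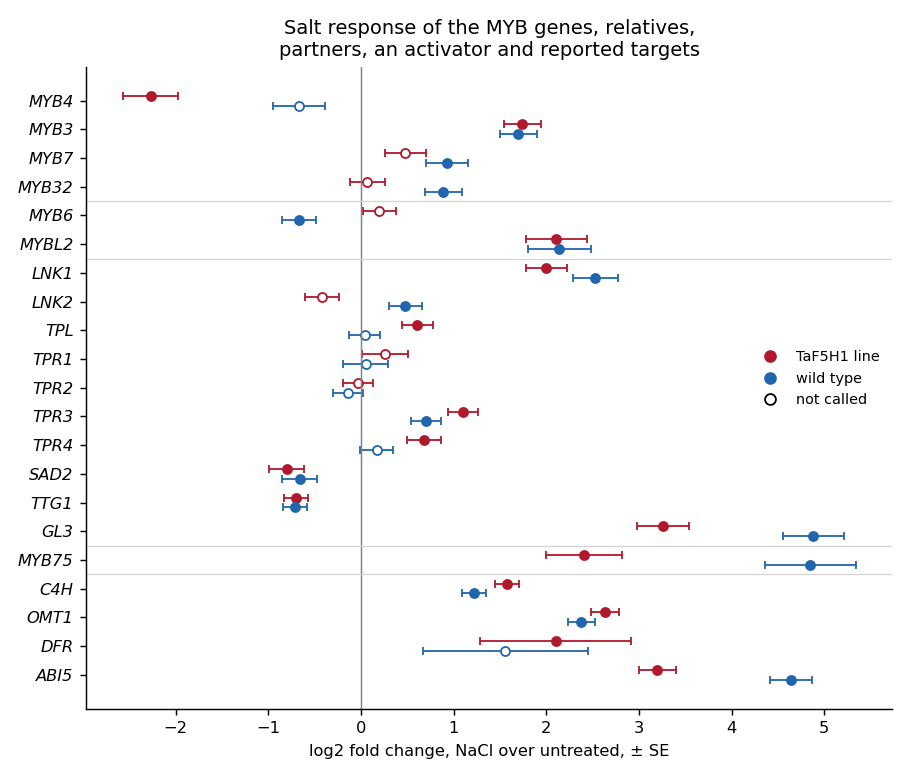
Log2 fold change under NaCl (NaCl over untreated) with its standard error for the 4 MYB genes, their relatives, repressor partners, the activator MYB75 and genes reported as repressed by a member, in the TaF5H1 line (red) and in WT (blue); open points did not pass the adjusted p threshold of 0.05. LNK1, MYBL2, C4H, OMT1 and ABI5 lie right of 0 in both genotypes together with MYB3, whereas MYB4, SAD2 and TTG1 lie left of it.

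Of 12 MYB activators of phenylpropanoid branches, 10 were below the filter, among them the lignin activators MYB58, MYB63, MYB85, MYB46 and MYB83 and the flavonol activators MYB11, MYB12 and MYB111. Of the anthocyanin activators MYB113 and MYB114, also below it, no group mean exceeded 1.36 FPKM. The 2 tested were the anthocyanin activators MYB75 and MYB90, and both rose under NaCl in both genotypes. MYB75 rose by 2.41 ± 0.41 in the line (edgeR adjusted p = 0.000328) and by 4.85 ± 0.49 in WT (edgeR adjusted p = 8.15e-06). It was higher in the untreated line by 3.10 ± 0.47 (edgeR adjusted p = 0.00183). It had 34.98 to 121.97 FPKM in TaF5H1 in NaCl, 13.3 to 16.31 in untreated TaF5H1, 34.85 to 50.25 in WT in NaCl and 1.44 to 1.89 in untreated WT. MYB90 had 63.17 to 117.86 FPKM in TaF5H1 in NaCl, 5.14 to 12.72 in untreated TaF5H1 and 10.42 to 13.95 in WT in NaCl, and no count in any of the 3 untreated WT libraries. MYB75 and MYB90 are close paralogs of MYB113 and MYB114, and how reads that match several of them were counted is not given in the sources used here. For the line over WT, 1 of the 2 was higher in NaCl (MYB90, 2.78 ± 0.33, edgeR adjusted p = 0.0018) and both without salt. Both were negative for the difference of responses. The MYB75 call there was lost in 11 of the 12 fits without 1 library, and the MYB90 value rests on untreated WT libraries without a count.

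Of 5 genes reported in Arabidopsis as repressed by one of the 4 MYB proteins, 4 were tested. All 4 were higher under NaCl in the line and 3 in WT, with medians of 2.37 and 1.97. C4H, which encodes the enzyme that hydroxylates cinnamate and is a reported target of MYB4 and MYB3, rose by 1.58 ± 0.13 in the line (edgeR adjusted p = 1.62e-06) and by 1.22 ± 0.13 in WT (edgeR adjusted p = 1.39e-05). Its level was 91.3 ± 7.39 FPKM in TaF5H1 in NaCl, 36.5 ± 5.75 in untreated TaF5H1, 71.1 ± 4.53 in WT in NaCl and 35.0 ± 2.36 in untreated WT (SD, n = 3 each). In NaCl the line exceeded WT by 0.33 ± 0.13 (edgeR adjusted p = 0.065), and without salt the difference was -0.03 ± 0.13 (edgeR adjusted p = 0.914). C4H thus rose under NaCl in both genotypes, as MYB3 did. MYB4 fell in the line, and its WT value of -0.67 changed sides of the threshold with the processing. A link between these changes was not tested.

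OMT1, a methyltransferase of the syringyl branch reported as a target of MYB32, rose by 2.63 ± 0.15 in the line (edgeR adjusted p = 1.15e-07) and by 2.38 ± 0.15 in WT (edgeR adjusted p = 2.67e-07). ABI5, the bZIP factor of abscisic acid signalling reported as a target of MYB7, rose by 3.20 ± 0.20 in the line (edgeR adjusted p = 1.84e-07) and by 4.64 ± 0.23 in WT (edgeR adjusted p = 3.94e-08). It was higher in the untreated line by 1.66 ± 0.25 (edgeR adjusted p = 0.00177). Its untreated means were low, at 0.603 FPKM (77 summed counts) in the line and 0.177 FPKM (22 summed counts) in WT. In NaCl they were 4.66 FPKM in the line and 3.92 FPKM in WT. A link of ABI5 to MYB7 was not tested. DFR, the anthocyanin enzyme dihydroflavonol reductase, rose in the line by 2.1 ± 0.81 (edgeR adjusted p = 0.0389) and changed by 1.56 ± 0.89 in WT (edgeR adjusted p = 0.161). The call in the line was lost in 4 of the 12 fits without 1 library and with library totals alone (edgeR adjusted p = 0.0636). ADT6, an arogenate dehydratase reported as a target of MYB4, was below the filter, with group means of at most 0.0333 FPKM.

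For the line over WT, 0 of the 4 targets were called in NaCl by edgeR, although 3 had a positive change with an unadjusted p under 0.05. There DESeq2 called 2 and limma called 1 with a pseudocount of 1 and 0 with a pseudocount of 0.1. Without replicate 1 of the line in NaCl, edgeR called 3 higher in NaCl. Without salt 1 was higher, ABI5, and for the difference of responses 1 was negative, also ABI5, which limma did not call (adjusted p = 0.393 and 0.0588 with pseudocounts of 1 and 0.1). The medians were 0.36 in NaCl, 0.88 without it and 0.30 for the difference.

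Among 19 enzymes from phenylalanine formation to the lignin precursors, 17 were tested, and under NaCl 11 rose and 2 fell in the line, against 9 and 3 in WT, with medians of 0.56 and 0.53. CAD5, a cinnamyl alcohol dehydrogenase of the last step, moved furthest, by 4.66 ± 0.18 in the line (edgeR adjusted p = 1.59e-08) and by 5.22 ± 0.18 in WT (edgeR adjusted p = 1.03e-08). CAD4, of the same step, fell, with log2 fold changes of -2.41 ± 0.26 in the line (edgeR adjusted p = 1.19e-05) and -1.38 ± 0.25 in WT (edgeR adjusted p = 0.00072). PAL1, a phenylalanine ammonia-lyase of the first step, rose by 1.66 ± 0.17 in the line (edgeR adjusted p = 8.08e-06) and by 1.18 ± 0.17 in WT (edgeR adjusted p = 0.000128). PAL4, with group means of 0.667 to 3.29 FPKM, rose by 1.89 ± 0.48 in the line (edgeR adjusted p = 0.00444) and by 2.00 ± 0.47 in WT (edgeR adjusted p = 0.00354). PAL2 changed by 0.08 ± 0.14 in the line (edgeR adjusted p = 0.626) and by 0.17 ± 0.14 in WT (edgeR adjusted p = 0.322). PAL3 fell in the line, with a log2 fold change of -4.23 ± 0.32 (edgeR adjusted p = 7.4e-07), to a mean of 0.357 FPKM in NaCl against 8.0 FPKM without it. It also fell in WT, with -2.12 ± 0.28 (edgeR adjusted p = 6.92e-05) and means of 1.0 FPKM in NaCl and 5.0 FPKM without it.

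For the line over WT, 1 enzyme was higher and 3 lower in NaCl, and 1 was higher and 2 lower without salt, with medians of 0.07 and 0.06. FAH1, the line's own ferulate 5-hydroxylase gene, was higher in NaCl by 1.51 ± 0.28 (edgeR adjusted p = 0.00379). Its level there was 25.9 ± 11.6 FPKM in the line and 8.86 ± 0.3 FPKM in WT (SD, n = 3 each). Whether reads of TaF5H1 were counted for FAH1 was not tested. The lower ones included the phenylalanine ammonia-lyase genes PAL2 (-0.56 ± 0.14, edgeR adjusted p = 0.0126) and PAL3 (-1.52 ± 0.33, edgeR adjusted p = 0.00713), although a fit of only those groups ended the PAL3 call (edgeR adjusted p = 0.0611). In NaCl the other lower one was CAD4 (-0.97 ± 0.26, edgeR adjusted p = 0.0155). Without salt, CAD5 was higher by 0.92 ± 0.15 (edgeR adjusted p = 0.00329). HCT, an acyltransferase of the shikimate ester steps (-0.69 ± 0.12, edgeR adjusted p = 0.00358), and PAL2 (-0.47 ± 0.14, edgeR adjusted p = 0.0435) were lower. The PAL2 call without salt was lost in 9 of the 12 fits without 1 library, with library totals alone (edgeR adjusted p = 0.0983), with no filter (edgeR adjusted p = 0.069) and in limma (adjusted p = 0.0868 and 0.0936 with pseudocounts of 1 and 0.1). In NaCl it was lost in the fit without replicate 2 of the line in NaCl (edgeR adjusted p = 0.0529). Without replicate 1 of the line in NaCl, 4 were higher in each of these comparisons. Among the enzymes, 1 was positive (HCT) and 1 negative (PAL3) for the difference of responses, and 3 and 3 without that library.

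In the sinapate ester branch, which MYB4 is known to restrain, 3 of 5 enzymes were tested. Under NaCl 1 rose and 1 fell in the line, and 1 fell in WT (2 without replicate 1 of the line in NaCl). ALDH2C4, which makes ferulate and sinapate from their aldehydes, was the one that fell in both, with log2 fold changes of -0.53 ± 0.17 in the line (edgeR adjusted p = 0.0153) and -1.29 ± 0.17 in WT (edgeR adjusted p = 6.52e-05). The call in the line was lost without replicate 1 of the untreated line (edgeR adjusted p = 0.0644) and in a fit of only the groups compared (edgeR adjusted p = 0.0973). UGT84A2, a sinapate glucosyltransferase, rose in the line by 2.09 ± 0.14 (edgeR adjusted p = 3.46e-07), with 27.3 ± 2.66 FPKM in NaCl and 7.68 ± 0.878 FPKM without it (SD, n = 3 each). In WT it changed by 0.17 ± 0.14 (edgeR adjusted p = 0.314), with 7.62 ± 1.17 FPKM in NaCl and 7.74 ± 0.762 FPKM without it (SD, n = 3 each). In NaCl, UGT84A2 was thus higher in the line by 1.82 ± 0.14 (edgeR adjusted p = 0.000267). The part of MYB4 in the values of this branch was not tested. SNG1, the sinapoylglucose:malate sinapoyltransferase, was lower in the line, with log2 differences of -0.69 ± 0.12 in NaCl (edgeR adjusted p = 0.00362) and -1.02 ± 0.12 without it (edgeR adjusted p = 0.000699). In all, 2 were higher and 1 lower in the line in NaCl and 1 was lower without salt. For the difference of responses 1 was positive, which became 3 without replicate 1 of the line in NaCl.

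Of 7 flavonoid enzymes, 5 were tested; 3 rose under NaCl in the line and 3 in WT, with medians of 0.97 and 1.52. CHS, chalcone synthase at the entry of the branch, rose by 0.97 ± 0.39 in the line (edgeR adjusted p = 0.0429) and by 1.52 ± 0.40 in WT (edgeR adjusted p = 0.00668). LDOX, of the anthocyanin steps, rose by 1.96 ± 0.63 in the line (edgeR adjusted p = 0.0168) and by 1.81 ± 0.69 in WT (edgeR adjusted p = 0.0431). These calls were narrow: leaving out 1 library ended the CHS call in the line in 5 of 12 fits and the LDOX calls in 3 fits in the line and 6 in WT. Library totals alone ended the CHS call in the line (edgeR adjusted p = 0.121) and the LDOX call in WT (edgeR adjusted p = 0.0644). The CHS call in the line was also lost at a mean FPKM of 5 or more (edgeR adjusted p = 0.0662) and in limma (adjusted p = 0.136 and 0.15 with pseudocounts of 1 and 0.1). For LDOX, limma ended the call in the line with a pseudocount of 0.1 (adjusted p = 0.0508) and that in WT with one of 1 (adjusted p = 0.0561). Between the genotypes edgeR called 0 flavonoid enzymes, with 2 higher in NaCl and 0 without salt at an unadjusted p under 0.05. In NaCl, DESeq2 called 1 higher and limma 2 with a pseudocount of 1 and 0 with one of 0.1; without salt both called 0. For the difference of responses the count was 0 in edgeR, at an unadjusted p under 0.05, in DESeq2 and in limma. Without replicate 1 of the line in NaCl, edgeR called 2 higher and 1 lower in NaCl, and 1 negative for the difference of responses. MYB7, a member reported to restrain flavonol genes, was itself higher in WT under NaCl. A link between MYB7 and these enzymes was not tested.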

How the data were processed

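Leaf RNA of 12 Arabidopsis samples was sequenced and 1 table of 34218 genes was deposited. Per the submitters' processing notes, bcl2fastq 2.17.1.14, cutadapt 1.9.1, HISAT2 2.0.1 and the TAIR10 build were used; neither the counter nor its strand setting is named there. Per the file headers, the table holds each library's raw count per gene and its FPKM. The deposited FPKM equalled the deposited count scaled by exon length and library total to within 0.005.

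Counts were tested with the quasi-likelihood test of edgeR 4.0.16 (R 4.3.3) on the 17038 genes whose FPKM averaged 1 or more, with TMM factors, a mean per group, all 12 libraries in 1 fit and Benjamini-Hochberg adjustment over all genes; a call is an adjusted p under 0.05. The 5 comparisons were NaCl over untreated in each genotype, the line over WT in each condition, and the difference of the salt responses. Standard errors are the fold change divided by the root of the test statistic. The procedure was tested on simulated counts. Each p-value measures the spread between 3 biological replicates a group, which share replicate numbers that do not pair them. Alternatives were other scalings, filters and fits, DESeq2 1.42.0, limma 3.58.1 on log2(FPKM + 1) and log2(FPKM + 0.1), and leaving out each library.

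The members, the gene lists and the tests were chosen with earlier results of these data known. Named were the 4 members and the 3 genes most and least correlated with each. So was every gene of the lists of relatives, partners, activators and reported targets. Of the enzyme lists, most genes whose changes are given were among the 3 smallest adjusted p of their list in a comparison. PAL1 and PAL4 were not, while the changes of the flavonoid enzymes CHI and CYP75B1 were among them but are not given. Lists are described by counts and medians, without a test of the list. Coding sequences and proteins were read from the RefSeq TAIR10.1 genome and annotation (Biopython 1.88), in which 32520 of 32536 shared loci, the 4 members included, have the coordinates of the table. Counting error is largest for the low counts of MYB4 in the line in NaCl.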

Additional observations from a re-analysis of the deposited data

Results flagged for a closer look

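For 8 of the named genes the salt response differed between the TaF5H1 line and WT by a test of the difference itself (edgeR, line minus WT, log2 scale). MYB4 differed by -1.61 (adjusted p = 0.044), with means of 2.65 FPKM in the line in NaCl, 15.4 in the untreated line, 7.37 in WT in NaCl and 13.4 in untreated WT. Among the regulators, the bHLH gene GL3 differed by -1.62 (edgeR adjusted p = 0.04998), the anthocyanin activator MYB75 by -2.44 (edgeR adjusted p = 0.0405) and the abscisic acid regulator ABI5 by -1.44 (edgeR adjusted p = 0.0254), and each had its lowest level in untreated WT. Among the enzymes, PAL3 differed by -2.11 (edgeR adjusted p = 0.0221), HCT by 0.91 (edgeR adjusted p = 0.0164) and the sinapate glucosyltransferase gene UGT84A2 by 1.92 (edgeR adjusted p = 0.00313). The anthocyanin activator MYB90 was called as well (edgeR adjusted p = 0.0144), but with no count in untreated WT the size of its difference is not given. HCT rose under NaCl in the line by 0.45 ± 0.12 (edgeR adjusted p = 0.00558) and fell in WT, with a log2 fold change of -0.47 ± 0.12 (edgeR adjusted p = 0.00555).

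Leaving out 1 library ended the call for MYB4 and MYB75 in 11 of 12 fits each, for GL3 in 10, for ABI5 in 8, for PAL3 in 5 and for HCT in 1, the fit without replicate 1 of WT in NaCl (adjusted p = 0.0589), and for UGT84A2 in none of the 12. The rise of HCT in the line was not called with library totals alone (edgeR adjusted p = 0.212) or in limma (adjusted p = 0.229 and 0.226 with pseudocounts of 1 and 0.1).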

How the results depend on the processing

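Of the member calls, MYB4, MYB3, MYB7 and MYB32 kept theirs under the alternatives run other than leaving out a library (9, and 8 for the difference of responses), apart from MYB4 in the line over WT in NaCl with only the groups compared in the fit (-1.46, edgeR adjusted p = 0.051) and the MYB4 difference of responses with the replicate block (-1.65, edgeR adjusted p = 0.0599). MYB4 under NaCl in WT (-0.67 as reported) became called with library totals alone (-0.86), DESeq2 (-0.67), a mean FPKM of at least 5 (-0.76), limma on log2(FPKM + 1) (-0.78) or on log2(FPKM + 0.1) (-0.85), and only the groups compared (-0.67). MYB7 under NaCl in the line became called with DESeq2 (0.52) and with the replicate block (0.50), and MYB7 in the line over WT in NaCl with DESeq2 (0.59). MYB32 under NaCl in the line (0.07, not called) turned to -0.19 with library totals alone, -0.02 at a mean FPKM of at least 5, -0.18 and -0.19 with limma at pseudocounts of 1 and 0.1, -0.06 without replicate 3 of the untreated line and -0.11 without replicate 1 of the line in NaCl; without the last, MYB32 in the line over WT in NaCl turned to -0.14. The MYB3 difference of responses (0.04, not called) turned to -0.02 with library totals alone, -0.14 without replicate 2 of untreated WT, -0.07 and -0.09 without replicate 1 or 3 of the untreated line, and -0.02 without replicate 2 of the line in NaCl. The cause of these changes was not tested.

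With only the groups compared, counts of calls were 3992 against 2371 as reported (line over WT without salt) and 2000 against 5888 (in NaCl). For the difference of responses they were 2531 with DESeq2, 1520 with limma on log2(FPKM + 1) and 644 with the replicate block, against 1001. Leaving out 1 library gave 1160 to 5121, 2649 to 9185 and 129 to 6270 calls in these comparisons, the highest each time without replicate 1 of the line in NaCl. Over the same fits MYB4 ran over -0.76 to -0.56 for NaCl in WT and -2.09 to -1.30 for the difference of responses, MYB7 over 0.34 to 0.62 for NaCl in the line and 0.46 to 0.73 for the line over WT in NaCl, MYB32 over -0.11 to 0.19 for NaCl in the line, 0.77 to 1.01 for the line over WT without salt, -0.14 to 0.18 in NaCl and -1.02 to -0.70 for the difference, and MYB3 over 0.61 to 1.06 for the line over WT without salt and -0.14 to 0.31 for the difference.

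Same-numbered replicates did not deviate together (correlations of -0.259 to 0.239, over 0.1 in 4 of 18 pairs, and 2 of 12 libraries closest to their own number), so the replicate block is given only here. Of the other named calls it ended NaCl in the line for DFR (edgeR adjusted p = 0.0742), NaCl in WT for LDOX (0.0698) and LNK2 (0.0611), and the GL3 difference of responses (0.0527). For 67 results of the other named genes, 122 of 1385 values under alternatives were no longer called and none turned round. Not every value printed for these genes is among the 67, and the MYB90 difference of responses is not. Of 1456 counts over the gene lists, an alternative added after the data were seen, 148 moved by over 1.5 times. With 3 libraries a group and 40 to 108 counts of MYB4 in the line in NaCl, small differences of that gene could not be detected.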
